A study of Mus musculus with 10 samples.

Results

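Primary granule genes of neutrophil precursors are described here: Elane, Mpo, Prtn3, Ctsg, Ms4a3, Cebpe and Gfi1, 7 of the 35705 genes in the table and 7 of the 13841 that reached a 10-mouse mean of 1 TPM, the unit (transcripts per 1000000) of the table. The genes were chosen by name, as genes that mark the promyelocyte stage of neutrophil formation, and their values in these mice were not part of the choice rule. Earlier results of these data were known when they were chosen. RNA was sequenced from medial knee cartilage caps of 10 individual mice, 5 wild-type control mice and 5 Mir324-null mice, which lack the microRNA gene Mir324. No treatment was given, and the labels state no age, sex, litter, background strain or sequencing batch. Each replicate number stands for a separate mouse within its genotype.

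Neutrophils form in bone marrow, and their granules are filled in a fixed order. Promyelocytes make the primary (azurophilic) granules, which hold the serine proteases neutrophil elastase (Elane), proteinase 3 (Prtn3) and cathepsin G (Ctsg) together with myeloperoxidase (Mpo). Transcription of these genes is shut down as cells pass to the myelocyte stage, when secondary granule proteins such as lactoferrin (Ltf) and neutrophilic granule protein (Ngp) are made, so circulating neutrophils carry the primary granule proteins but little of their mRNA. The transcription factors Gfi1 and Cebpe act in this step, and Ms4a3 is a membrane protein of granulocyte and monocyte precursors.

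The samples are labelled articular cartilage and chondrocyte, and genes of blood-forming cells were abundant in each library. Haemoglobin genes took 11.2 to 19.7% of all TPM in the wild-type mice and 15.8 to 26.1% in the Mir324-null mice, and the neutrophil genes S100a8 and S100a9 together took 4.09 to 8.48%. Of 9 chondrocyte markers, 7 passed the filter and Matn3 and Col9a1 did not. Prg4 (lubricin), the most abundant of them, had means of 2902 (wild-type) and 1737 TPM (Mir324-null), above each of the 7 primary granule genes. Col2a1, the main collagen of cartilage, had 91.4 and 59.0 TPM, below 6 of the 7. Besides the primary granule genes, the B cell precursor gene Vpreb3 was present, at means of 122 (wild-type) and 76.4 TPM (Mir324-null). How much of the blood-cell RNA came from marrow and how much from circulating blood was not tested. The depth is unknown, because TPM values keep no read totals, so no counting interval is given. In bulk RNA, fewer cells of a type and less RNA per cell cannot be told apart.

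Prtn3 and Elane lie side by side on mouse chromosome 10 and share 3 short motifs in the same order just before their RefSeq transcription starts. Both are on the plus strand, Prtn3 at chr10:79874476-79883174 and Elane at chr10:79886247-79888215 in GENCODE M21 (build GRCm38), with 3072 bases between them. Both RefSeq starts lie downstream of the GENCODE starts, and the upstream end of the longer Prtn3 gene in GENCODE overlaps the minus-strand gene Plppr3. The 110 bases before the RefSeq start of each gene are printed 5′ to 3′ (RefSeq, GRCm38.p6, plus strand; chr10:79879557-79879666 for Prtn3 and chr10:79886202-79886311 for Elane), because these adjoining genes had the highest Pearson coefficient of any pair of members over the 10 mice. Capitals mark 3 motifs. The leftmost, AGGAAGT, is a core bound by ETS factors such as PU.1 (encoded by Spi1). The middle one, CAACGG, is a core bound by MYB. The rightmost, CTATAA, is of the kind that positions the start of transcription.
Prtn3: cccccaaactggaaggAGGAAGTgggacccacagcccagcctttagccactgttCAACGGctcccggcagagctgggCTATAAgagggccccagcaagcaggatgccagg
Elane: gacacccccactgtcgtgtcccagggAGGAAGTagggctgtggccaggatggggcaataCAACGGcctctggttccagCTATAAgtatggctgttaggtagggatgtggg
The motifs began 94, 56 and 33 bases before the RefSeq start of Prtn3 and 84, 51 and 32 bases before that of Elane. The GENCODE Elane gene begins within the printed stretch, between the leftmost and middle motifs. The middle and rightmost motifs of Elane thus lie inside that gene model, and all those of Prtn3 inside the longer GENCODE Prtn3 gene.

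The motifs were picked after the sequences had been seen, so their presence in these promoters is a description. Searched on both strands in 32851 RefSeq promoter windows, each from 250 bases before to 50 after the start, AGGAAGT was present in 9.35%, CAACGG in 5.12% and CTATAA in 8.18%, and all of them together in 8 promoters, 0.0244%. Among the other members, AGGAAGT was also found before Mpo and Ctsg, whose stretches are printed for comparison with the proteases on chromosome 10 (Mpo at chr11:87793544-87793580, plus strand; Ctsg at chr14:56102755-56102814, minus strand).
Mpo: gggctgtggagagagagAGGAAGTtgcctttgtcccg
Ctsg: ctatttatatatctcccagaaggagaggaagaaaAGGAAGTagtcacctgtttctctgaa
The motif began 223 bases before the RefSeq start of Mpo and 206 bases before that of Ctsg. For Mpo the GENCODE start, chr11:87793581, lies upstream of the RefSeq start, and the printed stretch ends directly before it. A C/EBP-type motif, TTGCNNAA, was held by 10.8% of the promoters on either strand, whereas the members were searched for it on the gene's own strand only. There it was found 143 bases before a RefSeq start of Gfi1 and 41 bases after that of Ms4a3. The opposite strand of the members was not searched for it, so that share is not a match for these hits. Of the 7 members, 6 matched the RefSeq table and Cebpe did not, so Cebpe is named only. Spi1 mRNA stood at a mean of 173 and 181 TPM in the 2 genotypes, and Myb mRNA at 55.5 and 55.2 TPM.

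The cargo genes were among the abundant mRNAs of these caps. The 7 genes together took 0.302% ± 0.0675 (SD, n = 5) of all TPM in wild-type mice and 0.296% ± 0.0882 (SD, n = 5) in Mir324-null mice, with single mice between 0.169 and 0.387%. By mean TPM over the 10 mice, Mpo ranked 146, Elane 171, Prtn3 195, Ctsg 321, Ms4a3 616, Cebpe 1026 and Gfi1 6366 among all genes. None of the 7 differed between the genotypes beyond the spread between mice.

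Elane encodes neutrophil elastase, which digests bacterial proteins and extracellular matrix. In wild-type mice 1 to 5 its level was 840, 447, 823, 838 and 918 TPM, and in Mir324-null mice 1 to 5 it was 1064, 947, 786, 686 and 416 TPM. One mouse of each genotype was low, wild-type mouse 2 and Mir324-null mouse 5, and the genotypes overlapped over most of their range. The means were 773 ± 186 TPM and 780 ± 250 TPM (SD, n = 5 each), and the change, Mir324-null minus wild-type on log2(TPM + 1), was -0.015 (SE 0.257, 95% interval -0.58 to 0.55, limma adjusted p = 0.991, exact permutation p = 0.952).

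Prtn3 encodes proteinase 3, a protease close to elastase. Wild-type mice 1 to 5 had 816, 407, 728, 676 and 700 TPM, and the Mir324-null mice had 814, 854, 666, 574 and 378 TPM in the same order. The low mice were the same as for Elane, and the 2 genotypes again overlapped. Means were 665 ± 154 and 657 ± 192 TPM (SD, n = 5 each), a change of -0.037 (SE 0.234, 95% interval -0.55 to 0.47, limma adjusted p = 0.976, exact permutation p = 0.841).

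Ctsg, on the minus strand at chr14:56099881-56102574, encodes cathepsin G, a protease with chymotrypsin-like activity. Its wild-type levels were 369, 230, 399, 340 and 341 TPM, and its Mir324-null levels were 356, 434, 315, 295 and 208 TPM, in order of mouse. Wild-type mouse 2 and Mir324-null mouse 5 were the lowest of their genotypes once more. Mean levels were 336 ± 63.6 and 322 ± 83.1 TPM (SD, n = 5 each), a change of -0.079 (SE 0.193, 95% interval -0.50 to 0.34, limma adjusted p = 0.934, exact permutation p = 0.706).

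Mpo, at chr11:87793581-87804413 on the plus strand, encodes the enzyme that makes hypochlorous acid from hydrogen peroxide and chloride. Its values were 1454, 616, 960, 746 and 906 TPM in wild-type mice 1 to 5 and 1251, 1120, 896, 815 and 512 TPM in Mir324-null mice 1 to 5. Wild-type mouse 1 was the highest, unlike for the proteases, and Mir324-null mouse 5 the lowest. The genotype means, 936 ± 320 and 919 ± 286 TPM (SD, n = 5 each), gave a change of -0.030 (SE 0.260, 95% interval -0.60 to 0.54, limma adjusted p = 0.982, exact permutation p = 0.937). Without wild-type mouse 1 the change in Mpo was 0.14, also not past the threshold.

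**Figure D1:**
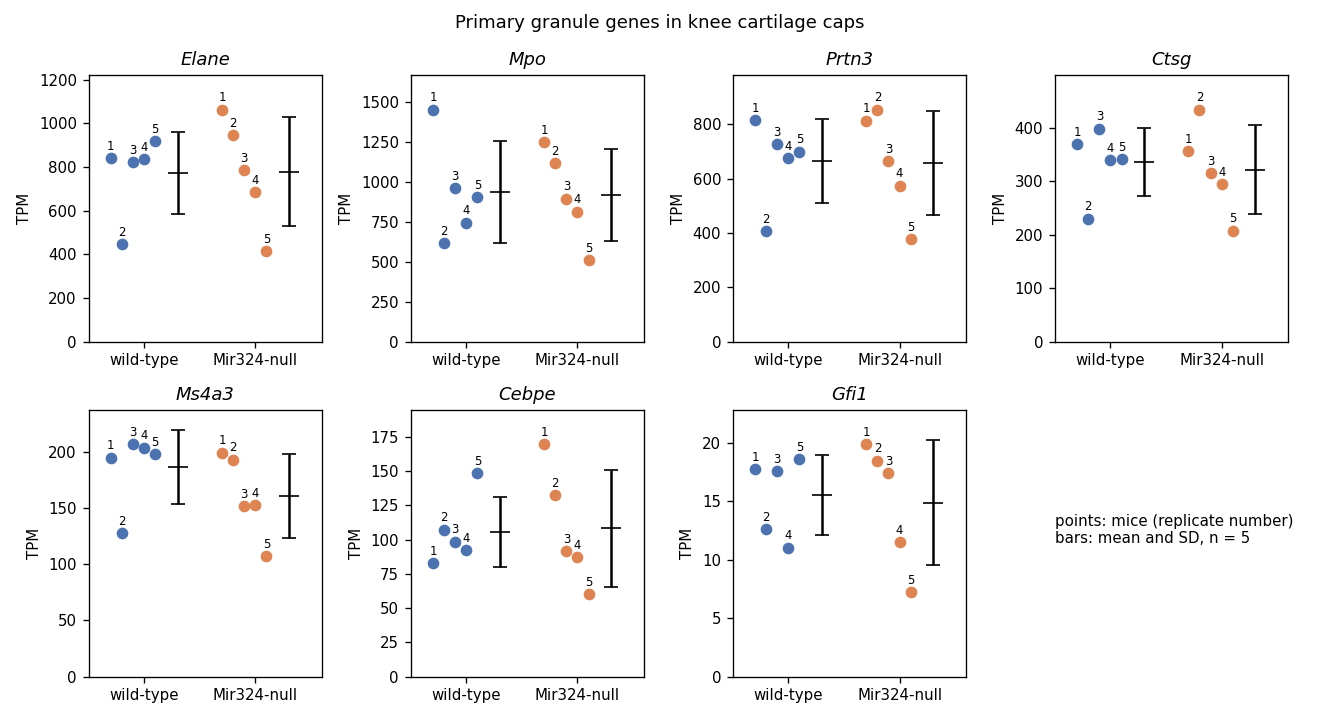
TPM of each primary granule gene (linear axes from 0) in each of the 10 mice, wild-type and Mir324-null, with the mouse number beside each point and the mean ± SD of each genotype. The genotypes overlap for all 7 genes, and Mir324-null mouse 5 is the lowest point for each of them.

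Ms4a3, at chr19:11629496-11640851 on the minus strand, had the largest estimated change of the 7. Wild-type mice had 195, 128, 207, 204 and 198 TPM and Mir324-null mice 199, 193, 152, 153 and 108 TPM, in order of mouse. Wild-type mice 1, 3, 4 and 5 lay between 195 and 207 TPM, and Mir324-null mice 1 and 2 were at or just below that band. Means were 187 ± 33.1 and 161 ± 37.2 TPM (SD, n = 5 each), and the change of -0.22 (SE 0.181, 95% interval -0.62 to 0.17) did not pass the test (limma adjusted p = 0.705, exact permutation p = 0.310).

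Cebpe, at chr14:54710360-54712174 on the minus strand, encodes the C/EBP factor needed for secondary granule genes. Its levels were 82.7, 107, 98.4, 92.1 and 148 TPM in the wild-type mice and 169, 132, 91.8, 86.9 and 60.3 TPM in the Mir324-null mice. The order of the mice differed from that of the proteases: wild-type mouse 1 was the lowest wild-type mouse and wild-type mouse 2 the second highest. Means of 106 ± 25.4 and 108 ± 42.9 TPM (SD, n = 5 each) gave a change of -0.028 (SE 0.250, 95% interval -0.57 to 0.52, limma adjusted p = 0.982, exact permutation p = 0.921).

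Gfi1, at chr5:107716657-107726036 on the minus strand, encodes a zinc finger repressor needed for neutrophil formation. It was the least abundant member, with 17.7, 12.6, 17.6, 11.03 and 18.6 TPM in wild-type mice 1 to 5 and 19.9, 18.5, 17.4, 11.5 and 7.23 TPM in Mir324-null mice 1 to 5. Mir324-null mouse 5 stood lowest here too, and the other Mir324-null mice lay near or within the wild-type range. Mean levels were 15.5 ± 3.43 and 14.9 ± 5.35 TPM (SD, n = 5 each), a change of -0.11 (SE 0.252, 95% interval -0.66 to 0.44, limma adjusted p = 0.931, exact permutation p = 0.794).

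No member passed an adjusted p of 0.05, as no gene of the 13841 did (0.0% called), and the smallest adjusted p of any gene was 0.277. At an unadjusted limma p under 0.05, 11.6% of all genes were called and 0 of the 7 members, and at an exact permutation p under 0.05, 10.6% of all genes and 0 members; 5 mice against 5 allow an exact p as small as 0.00794. Groups that did not overlap were seen for 1.94% of all genes and for 0 members. All 7 estimates were below 0, between -0.22 and -0.015 with a median of -0.037, and so were 60.0% of all genes, whose median change was -0.045. The sign changed with the scaling and with 1 mouse: with TPM rescaled to leave out haemoglobin, 5 of the 7 estimates were above 0, and without Mir324-null mouse 5 it was 6 of the 7. Each gene's own 95% interval, given above, shows the precision of its estimate on the main scaling only. Its lower end lay between -0.66 (Gfi1) and -0.50 (Ctsg). Its upper end was 0.17 for Ms4a3 and 0.34 for Ctsg, and 0.44 or more for the other 5.

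**Figure D2:**
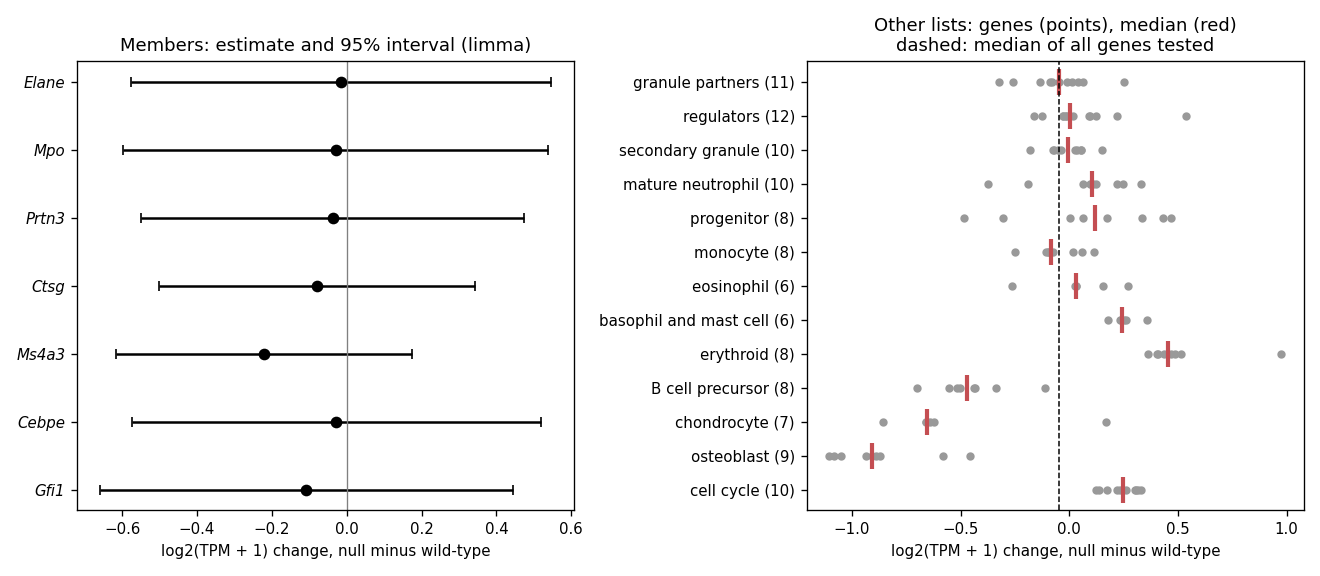
Change of each primary granule gene, Mir324-null minus wild-type in log2(TPM + 1), with its 95% interval from limma, on the left, and on the right the changes of single genes of the other lists (grey points, number tested in brackets) with each list's median (red) and the median of all genes tested (dashed, -0.045). Every member interval crosses 0, and the list medians run from -0.91 for osteoblast to 0.45 for erythroid genes.

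The members varied more between mice than most genes did. The SD of log2(TPM + 1) over the 10 mice was 0.450 for Elane, 0.455 for Mpo, 0.408 for Prtn3, 0.333 for Ctsg, 0.328 for Ms4a3, 0.436 for Cebpe and 0.436 for Gfi1, against a median of 0.248 over all genes and of 0.187 over the 1114 genes with at least 100 TPM. This placed Ms4a3 at the 70.2 percentile of all genes and Mpo at the 87.0 percentile, with the others between them. On the TPM scale the coefficient of variation was 20.6 to 31.1%, and the highest mouse exceeded the lowest by 1.92 to 2.84 times.

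The low values gathered mostly in the same mice. Mir324-null mouse 5 was the lowest of the 10 for 7 of 7 members, with a median deviation over the members of -0.76 from each gene's 10-mouse mean on the log2 scale, and wild-type mouse 2 followed with -0.48. Wild-type mouse 2 was not low for every member. It deviated by 0.062 for Cebpe and by -0.20 for Gfi1, for which wild-type mouse 4 was lower (-0.38). At the other end, Mir324-null mice 1 and 2 had median deviations of 0.42 and 0.34. Mir324-null mouse 5 also had the highest haemoglobin share, 26.1%. Rescaling the TPM values without haemoglobin genes was planned for the changes and was applied to the levels after the values had been seen. On those values, Mir324-null mouse 5 was the lowest for 4 members (Mpo, Ms4a3, Cebpe and Gfi1) and wild-type mouse 2 for 3 (Elane, Prtn3 and Ctsg). The highest mouse then exceeded the lowest by 1.77 to 2.52 times. Whether the share of other cells accounts for the rest of the spread was not tested.

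**Figure D3:**
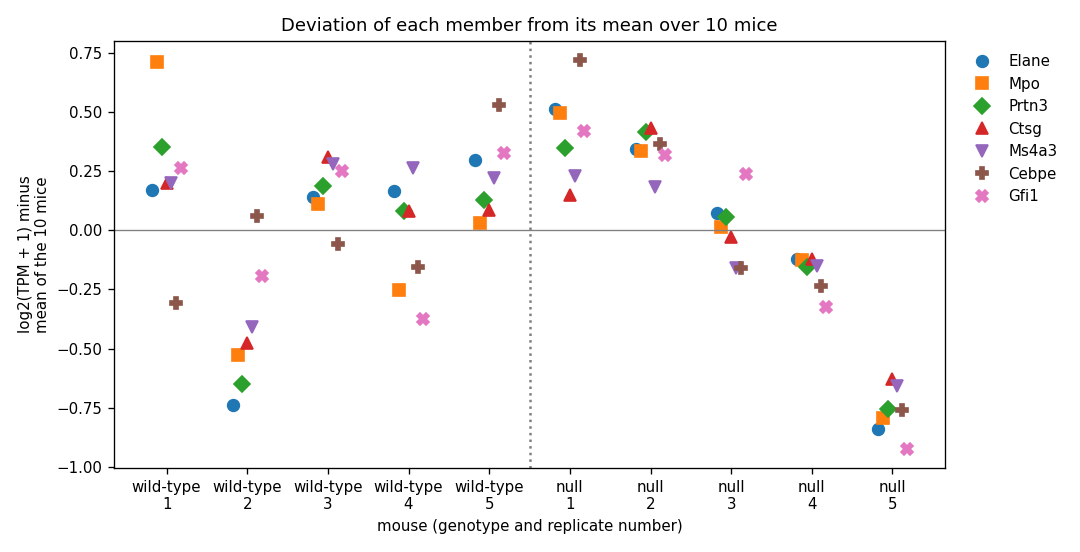
Deviation of each primary granule gene from its own mean over the 10 mice, in log2(TPM + 1), with mice 1 to 5 of each genotype (null stands for Mir324-null) on the horizontal axis and 1 point per gene. Mir324-null mouse 5 and wild-type mouse 2 have the lowest medians (-0.76 and -0.48), and both genotypes also hold mice above 0.

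The order of the members by level was kept in nearly every mouse. TPM is scaled by transcript length, so levels can be set side by side. Mpo exceeded Elane in 8 of 10 mice, with a ratio of 0.890 to 1.73, so these neighbours in the order were not separated. Elane exceeded Prtn3 in 10 of 10 mice by 1.03 to 1.31 times, and Prtn3 exceeded Ctsg in 10 of 10 by 1.77 to 2.28 times, although the ranges over mice overlapped in both cases. Ctsg was above Ms4a3 in each mouse by 1.67 to 2.24 times and Cebpe above Gfi1 by 4.66 to 8.53 times, with no overlap of their ranges. Between them, Ms4a3 was above Cebpe by 1.18 to 2.36 times in 10 of 10 mice, with overlapping ranges. Counted on protein-coding transcripts alone, Prtn3 averaged 374 in place of 661 TPM, so that Elane exceeded it by 1.92 to 2.25 times and it exceeded Ctsg by 1.05 to 1.46 times, in 10 of 10 mice each.

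Across the 10 mice the cargo genes varied together. Over the 21 pairs of members, Pearson's r of log2(TPM + 1) ran from 0.505 to 0.969 with a median of 0.824, and Spearman's rho from 0.358 to 0.964. With permutation p-values adjusted over the 21 pairs, 17 passed 0.05 by Pearson's r and 11 by Spearman's rho. The 6 pairs of Elane, Mpo, Prtn3 and Ctsg passed by both, with r of 0.838 to 0.969. The points are libraries with 1 TPM total each, so a change in any abundant RNA moves all members of a library together.

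The neighbours Elane and Prtn3 had the highest Pearson coefficient over the 10 mice, r = 0.969 (permutation p = 0.00014, adjusted 0.00119) and rho = 0.891 (permutation p = 0.00117). Without the 2 mice farthest from the median, wild-type mouse 2 and Mir324-null mouse 5, r was 0.801. Prtn3 and Ctsg, which lie on different chromosomes, had r = 0.966 (permutation p = 7e-05, adjusted 0.00119) and rho = 0.964, and r = 0.841 without those mice, so by rho and without those mice this pair was above Elane and Prtn3. Mpo and Prtn3 had the highest r without 2 mice, 0.895. Part of the relation among the members rested on such mice: without the 2 farthest in each pair, r over the 21 pairs ran from 0.292 to 0.895, and over the 6 cargo pairs from 0.525 to 0.895. After the genotype means were subtracted, r over the 21 pairs was 0.505 to 0.981.

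The other genes next to Elane and Prtn3 were far lower in level. Plppr3 averaged 10.8 and 11.2 TPM in the 2 genotypes and had r = 0.646 with Elane, and Med16, a Mediator subunit, averaged 14.9 TPM in both. Cfd, which encodes complement factor D (adipsin), a serine protease of fat cells, lies downstream of Elane at chr10:79890853-79892655 and averaged 95.3 ± 25.1 and 55.2 ± 30.6 TPM (SD, n = 5 each). Its change of -0.89 (SE 0.313) did not pass the test over all genes (limma adjusted p = 0.342, exact permutation p = 0.0556), and its r with Elane was 0.251.

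Cebpe varied with the secondary granule genes. Its r with the mean of 10 secondary granule genes (Ltf, Camp, Ngp, Lcn2, Cd177, Chil3, Mmp8, Cybb, Hp and Itgb2l) was 0.936 (permutation p = 3e-05, adjusted over 49 member and list pairs 0.00147) and rho was 0.939 (permutation p = 0.00023, adjusted 0.0113). Leaving out mice 1 and 5 of the Mir324-null genotype, the farthest from the median, gave r = 0.922, and r was 0.937 after the genotype means were subtracted. This was the only one of the 49 pairs, from 7 lists, to pass. Against the same list, r was 0.374 for Elane, 0.243 for Mpo, 0.250 for Prtn3, 0.236 for Ctsg, 0.315 for Ms4a3 and 0.548 for Gfi1, with adjusted permutation p of 0.538 to 0.604. These values rested in part on single mice: without the 2 farthest mice in each case, r was 0.750 for Elane (without wild-type mouse 2 and Mir324-null mouse 5), 0.384 for Mpo, 0.330 for Prtn3, 0.212 for Ctsg, 0.318 for Ms4a3 and 0.254 for Gfi1. The difference between these coefficients and that of Cebpe was not tested. Among single genes, the closest to Cebpe were Abca13 (r = 0.989), Ly75 (r = 0.985) and Clec12a (r = 0.979), named after their values were seen.

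**Figure D4:**
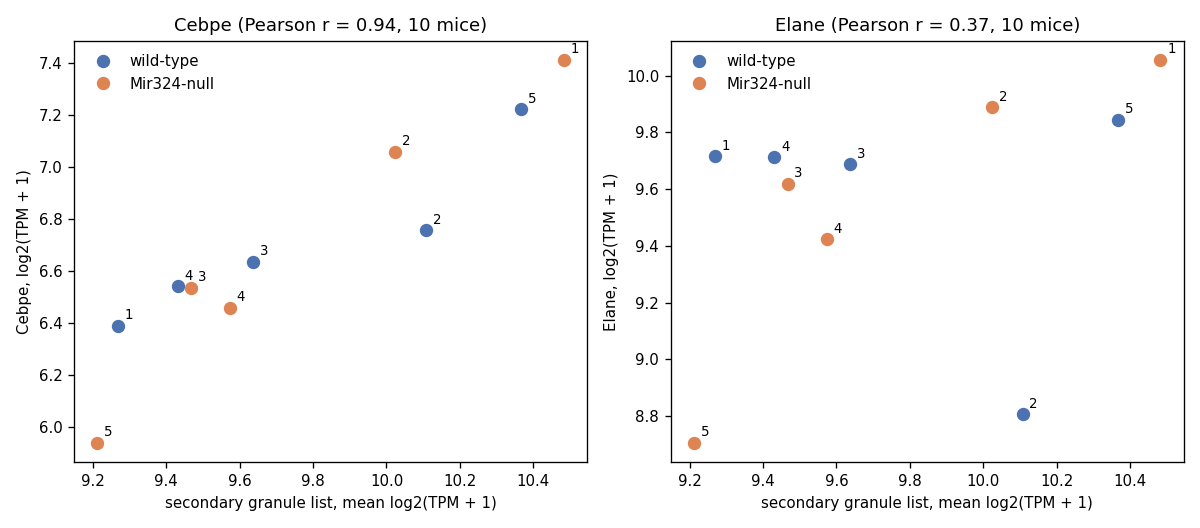
Level of Cebpe and of Elane, in log2(TPM + 1), against the mean log2(TPM + 1) of 10 secondary granule genes in the 10 mice. The points for Cebpe follow the list mean (r = 0.936), and those for Elane give r = 0.374, or 0.750 without wild-type mouse 2 and Mir324-null mouse 5.

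The ratio of primary to secondary granule mRNA spread widely within the wild-type mice and had nearly equal means in the genotypes. The summed TPM of Elane, Mpo, Prtn3 and Ctsg was 23.8, 7.27, 17.9, 17.0 and 10.7% of that of Ltf, Camp, Ngp and Lcn2 in wild-type mice 1 to 5 and 10.8, 16.03, 18.9, 15.5 and 13.5% in Mir324-null mice 1 to 5. The extremes were both wild-type, mouse 1 at the top and mouse 2 at the bottom. Means were 15.3% ± 6.46 and 14.9% ± 3.01 (SD, n = 5 each). Mir324-null mouse 5, the lowest for every primary granule gene, lay inside the wild-type range of this ratio.

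Among those 7 lists, no other list mean followed a member past the adjusted threshold, and the coefficients moved widely when the 2 farthest mice were left out. The r of the members with 10 mature neutrophil genes was -0.412 to 0.395 (-0.079 to 0.825 without 2 mice), with 8 monocyte genes 0.378 to 0.669 (-0.074 to 0.525), with 8 progenitor genes 0.457 to 0.711 (0.169 to 0.684) and with 8 erythroid genes -0.449 to -0.217 (-0.632 to 0.204). With 9 osteoblast genes it was -0.032 to 0.463 (-0.577 to 0.280) and with 10 cell cycle genes 0.069 to 0.293 (-0.200 to 0.843).

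The other 6 lists were added after the values had been seen, and p-values were adjusted over all 91 pairs. Cebpe and Gfi1 followed the mean of the 11 measured genes of the granule partner list by Pearson's r. That list includes Clec12a, named above among the genes closest to Cebpe. For Cebpe r was 0.939 (permutation p = 0.00042, adjusted 0.0127) and rho 0.842 (adjusted permutation p = 0.0844), with r = 0.937 without 2 mice. For Gfi1 r was 0.869 (permutation p = 0.00031, adjusted 0.0127) and rho 0.867 (adjusted permutation p = 0.0844), with r = 0.705 without 2 mice. The r of the other 5 members with this list was 0.634 for Mpo, 0.717 for Ms4a3, 0.718 for Prtn3, 0.725 for Ctsg and 0.763 for Elane, none past the threshold. Cebpe with the secondary granule genes passed here too (adjusted 0.00273 by r and 0.0209 by rho), and the other 88 pairs did not pass by either coefficient.

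The genes whose pattern over the 10 mice was most like that of the members were Spag7 (mean r with the 7 members 0.874), B4galt6, a glycosyltransferase (0.871), Far2, a fatty acyl-CoA reductase (0.858), Mfsd13a (0.855), Chdh, choline dehydrogenase (0.848), Irs2, an insulin receptor substrate (0.848), Golga3, a Golgi protein (0.846), Stt3b, a catalytic subunit of oligosaccharyltransferase (0.842), Xpc, a DNA damage sensor (0.840), and Inip (0.840). Over 13834 genes the median mean r was 0.287, and 57 genes reached 0.8. For single members, chosen after the values were seen, the closest were Gstm1, a glutathione transferase, for Mpo (r = 0.976), Cst7, a cystatin that inhibits cathepsins, for Prtn3 (0.962) and Cgas, the cytosolic DNA sensor, for Elane (0.945).

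The Mpo level by which wild-type mouse 1 exceeded the other mice was assigned to short transcripts. How the estimate divides reads between overlapping Mpo transcripts was not tested. The most abundant coding transcript of Mpo, ENSMUST00000121303 (2409 bases, 14 exons), had 761, 460, 793, 586 and 750 TPM in wild-type mice 1 to 5 and 1026, 883, 742, 668 and 382 TPM in Mir324-null mice 1 to 5, so wild-type mouse 1 was not the highest there. In that mouse a retained intron transcript of 542 bases, ENSMUST00000167903, had 358 TPM, 24.6% of all Mpo, against 5.47 to 49.9 TPM in the other 9 mice. A coding fragment of 640 bases, ENSMUST00000146650, had 319 TPM there and 69.4 to 178 TPM elsewhere. With protein-coding transcripts alone, the means of Mpo were 849 ± 201 and 892 ± 296 TPM (SD, n = 5 each), a change of 0.029 that did not pass the test. On these, which include the fragment of 640 bases, wild-type mouse 1 was still the highest wild-type mouse. It had 1094 TPM, against 574 to 952 TPM in the other wild-type mice.

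**Figure D5:**
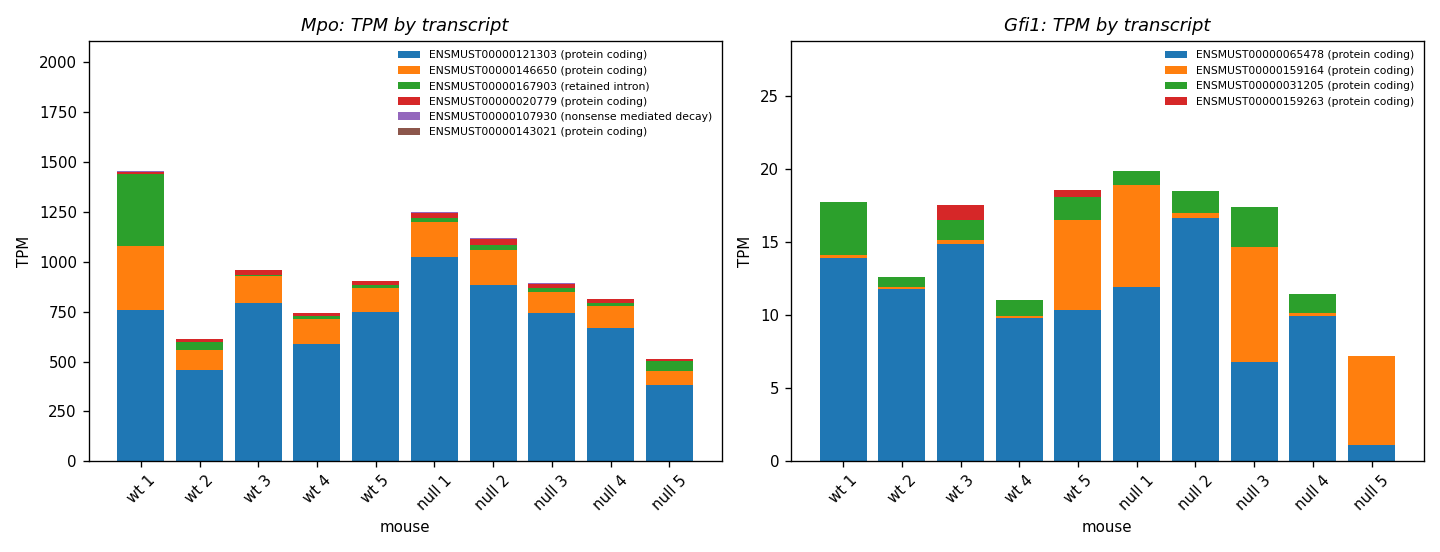
Stacked TPM of the transcripts of Mpo and of Gfi1 (vertical axes from 0, 1 colour per transcript) in wild-type (wt) and Mir324-null (null) mice 1 to 5. The Mpo transcript ENSMUST00000121303 makes up 52.3% of the bar of wild-type mouse 1 and more of every other bar, and the share of ENSMUST00000065478 in Gfi1 runs from 15.3 to 93.4%.

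Prtn3 was split between its coding transcript, ENSMUST00000006679, with 44.8 to 59.8% of its TPM, and a retained intron transcript of 786 bases, ENSMUST00000165982, with 36.3 to 51.6%. Wild-type mouse 1 again had the smallest coding share. Counted on coding transcripts alone, Prtn3 averaged 370 ± 79.3 and 377 ± 124 TPM (SD, n = 5 each). Ctsg and Ms4a3 came mostly from a single transcript (88.9 to 95.7% and 90.0 to 96.5%), and Elane and Cebpe have 1 listed transcript each.

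Gfi1 was divided between a pair of coding transcripts of nearly equal length in a pattern that differed from mouse to mouse. ENSMUST00000159164 (2648 bases) had 6.19 TPM in wild-type mouse 5, 6.94, 7.83 and 6.13 TPM in Mir324-null mice 1, 3 and 5, and under 0.4 TPM in the other 6 mice. The other form, ENSMUST00000065478 (2639 bases), was lowest in Mir324-null mouse 5, at 1.11 TPM, and Mir324-null mouse 3, at 6.82 TPM. How the estimate divides reads between such similar transcripts was not tested. Taking the most abundant transcript in place of the sum moved the Gfi1 change from -0.11 to -0.63, still not past the threshold.

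Lists of related genes were counted in the same test, and 0 genes of any list passed the adjusted threshold. Beside these counts, 60.0% of all genes tested had an estimate below 0 and 11.6% an unadjusted limma p under 0.05. Granule partners is the name of a list and does not say that each gene acts with the proteases. Of its 11 measured genes, 4 estimates were above 0 and 7 below, with a median of -0.050. Lysozyme (Lyz2), the most abundant, averaged 4608 and 4741 TPM. Serglycin (Srgn), the proteoglycan on which granule proteases are stored, averaged 532 and 515 TPM, and Ctsc, the peptidase that activates the proteases, 64.6 and 66.1 TPM. Serpinb1a, an inhibitor of elastase, averaged 255 and 254 TPM. Cd63, a granule membrane protein, had an unadjusted limma p under 0.05, with 360 ± 41.6 and 289 ± 43.5 TPM (SD, n = 5 each) and a change of -0.32 (SE 0.121, limma adjusted p = 0.354, exact permutation p = 0.0397).

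Of 12 regulators of myeloid development, 6 estimates were above 0 and 6 below, with a median of 0.0022. The one with an unadjusted limma p under 0.05 was Gfi1b, the relative of Gfi1 that acts in red cell and platelet formation, at 35.3 ± 8.52 and 50.6 ± 4.73 TPM (SD, n = 5 each), a change of 0.54 (SE 0.155, limma adjusted p = 0.308, exact permutation p = 0.0159). Among the 10 secondary granule genes 5 estimates were above 0 and 5 below, with a median of -0.0065, and Ngp, the most abundant, averaged 7264 and 7187 TPM. Without wild-type mouse 1 all 10 of these were below 0, with 0 past either threshold. Among 10 mature neutrophil genes 8 were above 0 (4 without wild-type mouse 1), with a median of 0.10, and Mmp9, a gelatinase, had a change of -0.38 (limma adjusted p = 0.399).

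Markers of other cells differed in estimate around the primary granule genes. For comparison, 11.6% of all genes tested had an unadjusted limma p under 0.05, and 60.0% had a change below 0. The 8 erythroid markers had a median change of 0.45, with 8 above 0 and 5 at an unadjusted limma p under 0.05, Epor among them, at 31.8 and 45.4 TPM. The 9 osteoblast markers had a median of -0.91, with 9 below 0 and 8 at that unadjusted p, and the 8 B cell precursor markers a median of -0.47, with 8 below 0 and 5 at that p. The 10 cell cycle genes had a median of 0.25, with 10 above 0 and 6 at that p. These directions held with median ratio scaling, quantile normalization and haemoglobin left out, except that 1 erythroid gene was below 0 under quantile normalization, and only the 4 erythroid markers that are not haemoglobin genes could be tested with haemoglobin left out. Without Mir324-null mouse 1, 1 B cell precursor gene was above 0. The counts at the unadjusted p were less stable. Over the alternatives the erythroid count ran from 1 (without wild-type mouse 5 or Mir324-null mouse 4) to 6 and the osteoblast count from 5 (without wild-type mouse 1, Mir324-null mouse 4 or Mir324-null mouse 5) to 9. The B cell precursor count ran from 1 (haemoglobin left out) to 7, and the cell cycle count from 3 (replicate block, or without wild-type mouse 2, wild-type mouse 4 or Mir324-null mouse 2) to 9. Estimates for 8 monocyte genes had a median of -0.084 and for 8 progenitor genes of 0.12. The part of these cells in the levels of the primary granule genes was not tested.

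MicroRNAs of the deleted gene pair through their seed, bases 2 to 8, with the 3′ UTR of their targets. Both mature strands are printed from RefSeq (GRCm38.p6, chromosome 11, plus strand) with the seed in capitals, because they are what the Mir324-null mice lack.
miR-324-5p: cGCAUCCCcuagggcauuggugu
miR-324-3p: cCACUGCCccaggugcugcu
The matching sites, GGGATGC for the 5p strand and GGCAGTG for the 3p strand, occurred 0 times in the 3′ UTRs, 47 to 1086 bases long, of 13 of the 15 listed coding transcripts of the 7 members. The other 2, 1 of Mpo and 1 of Gfi1, have no annotated 3′ UTR and were not searched. Among 12654 tested coding genes, 8.46% held the first site and 15.3% the other in their longest 3′ UTR. Outside Gfi1, the member 3′ UTRs searched were 47 to 226 bases long, and a short stretch has fewer places for a site. The shares were not matched for length, so the 0 of the members cannot be read against them. The letters of a site are a description and show neither binding nor its absence.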

How the data were processed

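RNA from knee cartilage caps of 10 mice was sequenced, and the authors deposited 1 table of TPM per transcript, made with kallisto per the submitters' processing notes. DESeq2 was not used here, although the submitters' processing notes name it. They also give GRCh38, a human build, although the transcript identifiers are mouse. TPM is scaled to 1000000 per library and keeps no depth. Identifiers were matched without version to GENCODE M21, where 115440 of 116912 matched and the rest held 0.275 to 0.356% of TPM. Of the matched identifiers, 115427 carried a newer version than in M21. Transcript lengths, types, exon counts and 3′ UTRs given here are those of M21, and the versions that kallisto used may differ. TPM was summed per gene. Each column name matched 1 sample title. The 1 TPM filter was applied to the mean over all mice, and the genes left were tested with limma 3.58.1 in R 4.3.3 (lmFit and eBayes with trend) on log2(TPM + 1), two-sided, with Benjamini-Hochberg adjustment over all 13841 genes and a threshold of 0.05. Fold changes on this scale understate those of low genes. Exact two-sided permutation tests over the mice and permutation p-values of correlations (100000 resamples) used numpy 2.4.6 in Python 3.11.15. Ranks for Spearman's rho came from scipy 1.17.1. The fit was tested on simulated data. The level of the deleted microRNA was not analysed here, so genotypes are as labelled.

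Members and gene lists were chosen with earlier results of these data known. Named genes are the 7 members, the most abundant gene of a list and genes with an unadjusted p under 0.05 (at most 4 a list, of which those bearing on the members are printed), the 10 genes most like the members, and the neighbours of Prtn3 and Elane. Ctsc, Srgn, Serpinb1a, Myb, Col2a1 and the genes closest to single members (Abca13, Ly75, Clec12a, Gstm1, Cst7 and Cgas) fall outside this rule and were named after their values were seen. Lists of eosinophil, basophil and mast cell, and chondrocyte genes had 0 genes past the adjusted threshold, with median changes of 0.030, 0.24 and -0.65. In that order, 5 of 6, 6 of 6 and 1 of 7 tested genes had estimates above 0, and 60.0% of all genes were below 0. At an unadjusted limma p under 0.05 were 0, 1 and 4 of them, against 11.6% of all genes. The chondrocyte count ran from 1 to 5 over the alternatives. Alternatives tried were the pseudocount, the filter, the scaling, the transcripts summed, a replicate block and leaving out each mouse. Replicate numbers name mice within a genotype.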

Additional observations from a re-analysis of the deposited data

Results flagged for a closer look

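In groups of 5 mice, 52 sets of values of the members and of their transcripts with a mean of at least 5 TPM were searched for a mouse far from the others, a rule that marks about 1 set in 20 by chance, and 8 were marked. The sets are not independent, since a gene and its main transcript share their values.

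Wild-type mouse 2 was marked as low for Elane, at 447 TPM for the gene and for its only transcript, for Ms4a3, at 128 TPM, for the main Ms4a3 transcript ENSMUST00000186023, at 118 TPM, and for the coding Prtn3 transcript ENSMUST00000006679, at 227 TPM. Wild-type mouse 1 was marked as high for the short Mpo transcripts ENSMUST00000146650, at 319 TPM, and ENSMUST00000167903, at 358 TPM. Mir324-null mouse 5 was marked as high for ENSMUST00000167903, at 49.9 TPM, while it was the lowest mouse for Mpo as a whole.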

How the results depend on the processing

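No member passed the adjusted or the unadjusted threshold under any of the 19 alternatives, and the estimates whose sign changed were as follows. With median ratio scaling the change was 0.049 for Elane, 0.034 for Mpo, 0.026 for Prtn3 and 0.035 for Cebpe. Quantile normalization gave 0.089 for Elane, 0.11 for Mpo and 0.038 for Prtn3. Rescaled without haemoglobin, values were 0.076 for Elane, 0.061 for Mpo, 0.053 for Prtn3, 0.011 for Ctsg and 0.062 for Cebpe. The most abundant Mpo transcript gave 0.098 and coding transcripts alone 0.029. Leaving out 1 mouse at a time gave -0.20 to 0.19 for Elane, -0.17 to 0.16 for Mpo, -0.20 to 0.15 for Prtn3, -0.21 to 0.068 for Ctsg, -0.35 to -0.085 for Ms4a3, -0.21 to 0.16 for Cebpe and -0.23 to 0.11 for Gfi1. The cause was not tested. Over all genes, 0 passed the adjusted threshold, with 0 to 1 when a mouse was left out (1 gene without wild-type mouse 3, wild-type mouse 4 or Mir324-null mouse 1), and 1603 had an unadjusted p under 0.05 (1106 to 1927 with a mouse left out). Of these 63.1% were lower in Mir324-null mice, 48.5% with median ratio scaling, 51.2% with quantile normalization and 32.2% without haemoglobin. With the replicate block the member estimates did not move, their smallest adjusted p was 0.799, and 1168 genes had an unadjusted p under 0.05. Same-numbered mice did not deviate together (correlations -0.144 to 0.056, and no mouse was closest to its own number). The labels state no litter or batch, so these values cannot tell whether the numbers pair mice.

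The values are TPM without read totals, so the precision of low transcripts such as those of Gfi1 is unknown. With 5 mice a genotype the standard errors of the members, 0.181 to 0.260, set the width of their intervals. Other cells of the caps could not be separated in bulk RNA.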
